A study of Homo sapiens with 16 samples.

Results

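Transcripts of 10 genes of the mTOR complexes and their regulators were followed in 2 human keratinocyte lines in which YAP was depleted or activated. The genes were MTOR, RPTOR, RICTOR, MLST8 and DEPTOR, which encode subunits of the complexes, RHEB, TSC1, TSC2 and RRAGD, which encode proteins that switch the complex on or off, and EIF4EBP1, which encodes a substrate. They were taken by symbol, and all 10 were found among the 26229 genes of the count table. RNA had been sequenced from A431, an epidermoid carcinoma line, and HaCaT, a spontaneously immortalised keratinocyte line, both grown in DMEM with fetal calf serum. Each line gave 1 library from cells transfected with control siRNA (siCTRL), 3 from cells transfected with siRNA against YAP1 (siYAP), 1 from cells given the empty expression vector (EV) and 3 from cells given the constitutively active mutant of YAP1 (YAP5SA), so that 16 libraries formed 8 groups. The siRNA cells received no vector and the vector cells no siRNA. The siRNA was delivered in a pair of transfections 24 h apart and RNA was taken 48 h after the second, and for the vector cells the time of harvest is not given in the sources used here. Every group is a pool of cells of 1 established line, and each control is a single library, so the spread between control cultures was not measured.

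mTOR is a kinase that works in a pair of complexes. In mTORC1 it is held by Raptor (RPTOR), and the complex promotes protein synthesis and cell growth, in part by phosphorylating 4E-BP1 (EIF4EBP1), which in its unphosphorylated state blocks the cap-binding factor eIF4E. In mTORC2 it is held by Rictor (RICTOR), and that complex phosphorylates AKT. MLST8 belongs to both, and DEPTOR binds and inhibits mTOR. The small GTPase RHEB switches mTORC1 on at the lysosome, TSC1 and TSC2 together keep RHEB inactive, and Rag GTPases such as RRAGD bring mTORC1 to the lysosome when amino acids are present.

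The 16 libraries held between 18115624 and 46791673 read pairs assigned to genes. Levels are given as CPM, counts scaled to library size by the TMM method. YAP1 itself stood at 94.2 CPM in A431 siCTRL cells and at 5.04 to 6.99 in the siYAP libraries, and at 254 and 21.6 to 23.2 in HaCaT cells. With the vector, YAP1 rose from 124 CPM to between 1490 and 3240 in A431 cells, which did not pass the test (FDR = 0.197, edgeR), and from 423 to between 7550 and 22200 in HaCaT cells, which did (FDR = 0.00208, edgeR). Replicate 1 of the A431 YAP5SA libraries had the lowest YAP1 of its group and lay near the EV library for several members. Some results that rest on it are therefore also given without it, and member values without it are not independent of that choice. All 8 keratinocyte markers were detected in both lines, with a summed level of 2950 to 4810 CPM in A431 and 2820 to 7400 CPM in HaCaT cells, and the summed fibroblast, melanocyte, immune and endothelial lists reached at most 27.9, 3.78, 3.66 and 59.1 CPM. In bulk RNA a smaller number of expressing cells and less RNA per cell cannot be told apart.

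Of the 10 members, 8 were above the abundance the study required for a call (logCPM over 1), and their order of abundance differed between the lines chiefly in EIF4EBP1. In HaCaT cells the order also differed between the siRNA and vector libraries. Divided by transcript length, the median over the 8 A431 libraries was 92.8 CPM per kilobase for EIF4EBP1, 76.7 for RHEB, 25.6 for RICTOR and 11 for MTOR. It was 7.04 for TSC1, 5.58 for MLST8, 4.15 for TSC2 and 3.17 for RPTOR. In HaCaT cells RHEB came first at 50.6, followed by RICTOR at 32.6, while the medians of EIF4EBP1, MTOR and TSC1 were 13.9, 12.3 and 11.5. TSC2, MLST8 and RPTOR stood at 4.46, 3.98 and 2.81. Except for MLST8 and RPTOR, these HaCaT medians lie between separate levels. EIF4EBP1 was at 6.64 to 11.6 in the HaCaT siRNA libraries and at 16.2 to 35.9 in the vector libraries, and TSC1 at 15.1 to 17.4 and at 7.17 to 7.98. RHEB was at 27.5 to 37.4 and at 63.8 to 72.4, and TSC2 at 6.04 to 6.61 and at 1.63 to 2.89. MTOR (9.03 to 11.6 and 13 to 16.3) and RICTOR (28.2 to 30.4 and 34.8 to 43.1) lay closer together. In HaCaT siCTRL cells RHEB (27.5) stood just below RICTOR (28.2). TSC1 therefore stood above EIF4EBP1 in the siRNA libraries and below it in the vector libraries. TSC2 was the lowest of the 8 in both HaCaT vector groups, EV (1.63) and YAP5SA (mean 2.52). The ranges of EIF4EBP1 and RHEB overlapped in A431 cells (75.2 to 120 and 58.9 to 88.1 CPM per kilobase), as did those of TSC1 and MLST8 (6.31 to 7.85 and 4.28 to 8.36), whereas RICTOR (19.2 to 30) stood clear of RHEB above it and of MTOR (6.83 to 12.3) below it. In HaCaT cells RICTOR (28.2 to 43.1) and RHEB (27.5 to 72.4) overlapped. The mTORC2 subunit RICTOR was therefore the more abundant of the complex-specific subunits in every library, and the RPTOR to RICTOR ratio per length lay between 0.0645 and 0.221.

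**Figure D1:**
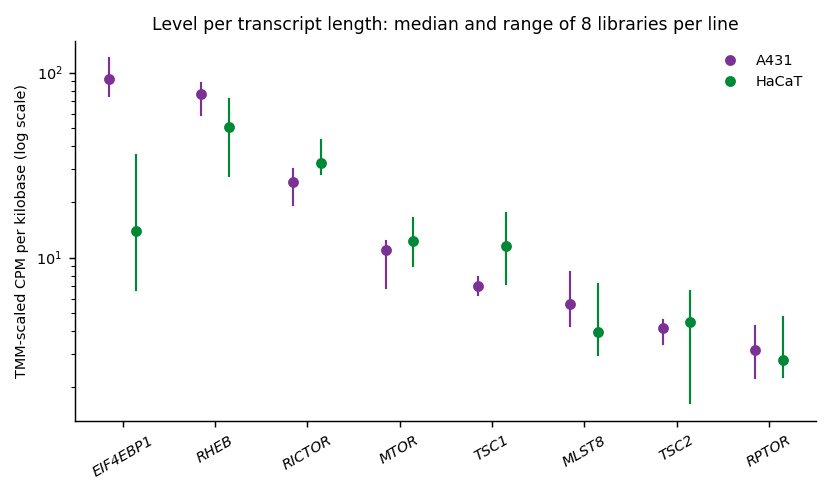
Level of the 8 abundant members in TMM-scaled CPM per kilobase of transcript on a log axis, with points for the median and lines for the lowest and highest of 8 libraries in A431 (purple) and HaCaT cells (green). EIF4EBP1 is the highest in A431, at a median of 92.8, and has a median of 13.9 in HaCaT cells.

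None of the 8 abundant members was called with siYAP at an FDR under 0.05. Of all 12237 genes of that abundance 6.71% were called in A431, 6.8% in HaCaT and 15.6% over both lines. The largest log2 difference of a member was 0.51 in A431 (MLST8, SE 0.38) and -0.61 in HaCaT cells (EIF4EBP1, SE 0.25). The median log2 fold change of the 8 members was 0.02 in A431 and 0.06 in HaCaT cells, beside medians of 0.002 and 0.001 over all genes. Without adjustment, 0 members in A431, 2 in HaCaT and 2 over both lines had p under 0.05 in the edgeR test, and DESeq2 called 0, 0 and 1.

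RHEB, the activator of mTORC1, lay above its control in all 6 siYAP libraries. In A431 cells it stood at 122 CPM in siCTRL and at 150, 142 and 138 in the siYAP libraries. In HaCaT cells it stood at 57.0 in siCTRL and at 74.5, 77.5 and 64.7 with siYAP, clear of the control in either line. The log2 difference over both lines was 0.29 with an SE of 0.09 and an FDR of 0.0558 (edgeR), which misses the threshold, and DESeq2 gave an FDR of 0.035. With siCTRL and EV pooled as 2 controls the difference turned to -0.27 over both lines (FDR = 0.329, edgeR) and to -0.52 in HaCaT cells. The difference between the lines in this response was within its error (log2 0.11, SE 0.18, FDR = 0.878, edgeR).

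EIF4EBP1 lay below its control in all 6 siYAP libraries. Its levels were 100 CPM in A431 siCTRL cells against 82.8, 89.5 and 99.8 with siYAP, and 11.8 in HaCaT siCTRL cells against 8.63, 7.97 and 6.77. The log2 difference was -0.61 in HaCaT cells (SE 0.25, FDR = 0.182, edgeR), and over both lines it was -0.38 (SE 0.17, FDR = 0.154, edgeR). MTOR, the kinase, was above its control in 6 of 6 siYAP libraries, at 103, 91.7 and 101 CPM against 73.3 in A431 and at 93.1, 90.9 and 101 against 78.3 in HaCaT cells. Its log2 difference over both lines was 0.35 (SE 0.18, FDR = 0.217, edgeR). In HaCaT cells MTOR in EV (118 CPM) stood above each siYAP library. With siCTRL and EV pooled its HaCaT difference turned to -0.05 (FDR = 0.901, edgeR), while over both lines it stayed at 0.25 or more under every alternative.

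The remaining subunits and the TSC genes gave smaller differences or a wider spread. MLST8, shared by both complexes, stood at 8.52 CPM against 10.2, 11.9 and 14.5 in A431 and at 5.62 against 5.18, 7.63 and 8.38 in HaCaT cells. RPTOR stood at 19.9 against 14.8, 20.7 and 21.9, and at 18.0 against 15.3, 15.3 and 18.1. RICTOR was 196 against 225, 188 and 201, and 212 against 215, 222 and 228. In A431 RPTOR and RICTOR, and in HaCaT cells RPTOR and MLST8, therefore had siYAP libraries on both sides of the control. TSC1 was slightly below its control in all 6 siYAP libraries (67.7 against 64.8, 59.8 and 65.0 CPM in A431, 150 against 144, 130 and 148 in HaCaT), a log2 difference of -0.10 over both lines (SE 0.09, FDR = 0.52, edgeR). TSC2 lay at 25.8 against 21.6, 28.0 and 26.9 and at 37.3 against 38.7, 37.2 and 40.8. A difference between the lines in the response to siYAP was called for no member (0 of 8 called by edgeR, against 0.204% of all genes, with 0 at an unadjusted p under 0.05 and 0 by DESeq2).

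**Figure D2:**
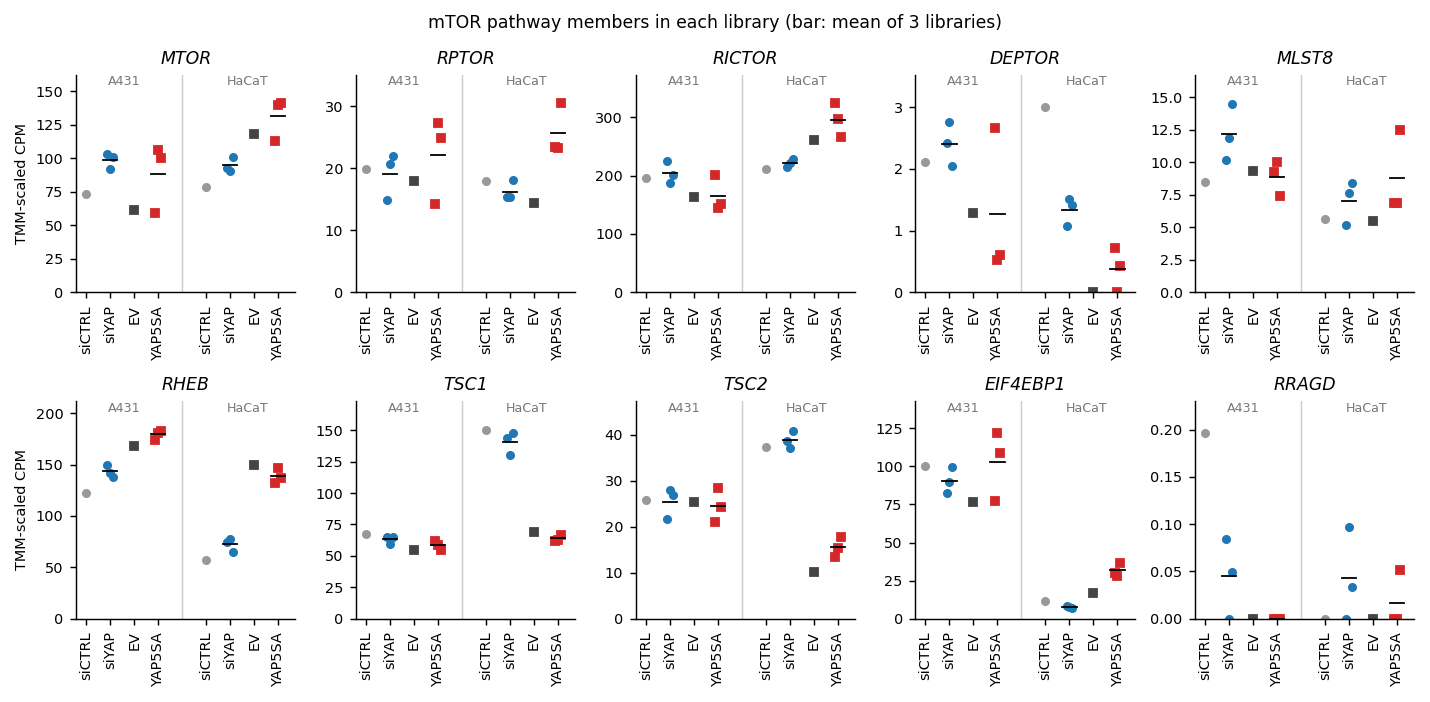
TMM-scaled CPM of each of the 10 members in all 16 libraries, by line and treatment, with a bar at the mean of groups of 3 libraries and a single point for each control. EIF4EBP1 in HaCaT cells rises from 16.6 in EV to between 28.3 and 36.6 with YAP5SA, and RHEB, TSC1 and TSC2 in HaCaT cells separate siRNA from vector libraries.

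EIF4EBP1 rose with YAP5SA in HaCaT cells and no other abundant member passed the test. EIF4EBP1, the translational repressor controlled by mTORC1, stood at 16.6 CPM with EV and at 30.3, 28.3 and 36.6 with YAP5SA, with no overlap between the groups. This was a 1.92-fold rise (log2 0.94, SE 0.24, FDR = 0.0252, edgeR). It was 1 of 8 members called, where 16.4% of all genes of that abundance were called, so the count is not above the background. The call was lost when the HaCaT libraries were fitted alone (FDR = 0.0514, edgeR) and when YAP5SA replicate 3, the highest library, was left out (log2 0.83, FDR = 0.0571, edgeR). In A431 cells EIF4EBP1 stood at 76.7 with EV and at 77.5, 122 and 109 with YAP5SA (log2 0.42, SE 0.23, FDR = 0.803, edgeR), with replicate 1 beside the control. Without that replicate the log2 difference was 0.59 (SE 0.19) and was not called. With all libraries the difference between the lines was 0.52 on the log2 scale with an SE of 0.32 (FDR = 0.358, edgeR).

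RPTOR, the defining subunit of mTORC1, and TSC2, the GTPase-activating partner of the TSC complex, were above EV in each HaCaT YAP5SA library without passing the threshold. RPTOR is among the growth regulators that the study picked out from these libraries, so its direction is not independent evidence. It stood at 14.4 CPM with EV and at 23.4, 23.3 and 30.5 with YAP5SA (log2 0.84, SE 0.33, FDR = 0.102, edgeR). TSC2 stood at 10.1 with EV and at 13.5, 15.4 and 17.8 with YAP5SA (log2 0.63, SE 0.22, FDR = 0.0702, edgeR). DESeq2 called both, with FDRs of 0.0495 and 0.0368, besides EIF4EBP1, as did edgeR with the replicate number as a block (0.0431 and 0.0432). With both controls of the line pooled TSC2 turned to -0.60 (FDR = 0.277, edgeR). The ratio of RPTOR to RICTOR per length was 0.0645 in the HaCaT EV library and 0.0845, 0.0921 and 0.134 with YAP5SA. RICTOR itself was 261 CPM with EV and 324, 296 and 266 with YAP5SA. TSC1 stayed at 61.8, 62.9 and 66.8 CPM beside 68.7 with EV, and the TSC2 to TSC1 ratio per length went from 0.205 to 0.305, 0.341 and 0.373.

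Of the other members in HaCaT cells, MTOR lay on either side of the control, RHEB close below it and MLST8 above it in each library. MTOR was 118 CPM with EV and 113, 140 and 141 with YAP5SA. RHEB was 150 with EV and 132, 147 and 137 with YAP5SA, below the control in each library (log2 -0.12, SE 0.13, FDR = 0.56, edgeR). MLST8 was 5.51 with EV and 6.91, 6.91 and 12.5 with YAP5SA, and its log2 difference of 0.67 (SE 0.38, FDR = 0.249, edgeR) became 0.33 without replicate 3. The median log2 fold change of the 8 members was 0.40, beside -0.02 over all genes.

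In A431 cells edgeR called no gene for YAP5SA (0.0%), against 87 genes (0.711%) without replicate 1 and 3 by DESeq2. Of the members 0 of 8 were called by edgeR with and without replicate 1, 0 had an unadjusted p under 0.05 and 0 were called by DESeq2. The 3 YAP5SA libraries did not form one group for the complex subunits. MTOR stood at 61.6 CPM with EV and at 59.3, 106 and 99.9 with YAP5SA. RPTOR stood at 17.9 and at 14.3, 27.2 and 24.8. RICTOR went the other way, from 164 to 201, 144 and 152. In each case replicate 1 stood on one side of the control and replicates 2 and 3 on the other. Left out, it gave a log2 difference of 0.74 for MTOR (SE 0.16, FDR = 0.0593, edgeR), 0.54 for RPTOR and -0.14 for RICTOR. RHEB (168 with EV, 174, 181 and 183 with YAP5SA), TSC1 (55.0, then 61.5, 59.0 and 54.3), TSC2 (25.4, then 21, 28.4 and 24.2) and MLST8 (9.32, then 9.29, 10.0 and 7.42) did not show this split.

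Over both lines together 0 of 8 members were called for YAP5SA by edgeR, against 2.45% of all genes, with 2 at an unadjusted p under 0.05 and 1 by DESeq2. EIF4EBP1 came closest (log2 0.68, SE 0.17, FDR = 0.0547, edgeR), above EV in 6 of 6 YAP5SA libraries. Without A431 YAP5SA replicate 1 the share over all genes was 9.97% and the number of members called was 3. These were EIF4EBP1 (log2 0.77, FDR = 0.0101, edgeR), MTOR (log2 0.45, FDR = 0.0265, edgeR) and RPTOR (log2 0.69, FDR = 0.0344, edgeR). With replicate 2 or 3 of that group left out instead none of the 3 was called, against 0.515% and 0.392% of all genes. The FDRs were then 0.0979 and 0.108 for EIF4EBP1, 0.442 and 0.419 for MTOR and 0.292 and 0.282 for RPTOR (edgeR). For YAP5SA such a difference between the lines was likewise called for no member (0 of 8 by edgeR, against 0.106% of all genes, with 1 at an unadjusted p under 0.05 and 0 by DESeq2), nor without A431 YAP5SA replicate 1, against 7.13%. The member under 0.05 was TSC2, at a log2 difference of 0.68 between the lines (SE 0.30, FDR = 0.205, edgeR).

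**Figure D3:**
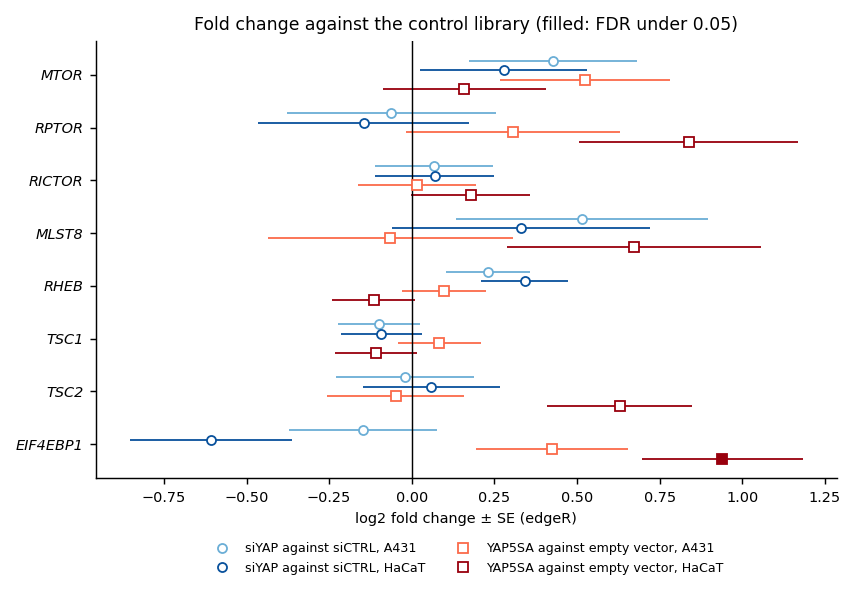
Log2 fold change of the 8 abundant members against the control library of the same line and arm, with bars for the SE of the edgeR fit, for siYAP (circles) and YAP5SA (squares) in A431 (light) and HaCaT cells (dark). The filled symbol, EIF4EBP1 in HaCaT YAP5SA cells at 0.94, is the one past an FDR of 0.05.

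YAP5SA and siYAP libraries of a line could be compared 3 against 3, and in HaCaT cells 7 of the 8 members differed, against a background of 71.9% of all genes. EIF4EBP1 was higher with YAP5SA by 2.03 on the log2 scale (SE 0.17, FDR = 3.62e-07, edgeR) and RHEB by 0.94 (SE 0.09, FDR = 1.02e-06, edgeR). RPTOR (0.66), MTOR (0.47) and RICTOR (0.41) were also higher. The inhibitors TSC2 and TSC1 were lower, by -1.32 (SE 0.15, FDR = 4.35e-06, edgeR) and -1.14 (SE 0.09, FDR = 1.55e-07, edgeR), and MLST8 was not called (0.31, SE 0.26, FDR = 0.303, edgeR). In A431 cells RHEB alone was called, higher by 0.32 (SE 0.09, FDR = 0.0124, edgeR), against a background of 41.5%. RICTOR was lower there by -0.31 (FDR = 0.0742, edgeR), and by -0.47 without YAP5SA replicate 1 (FDR = 0.00428, edgeR). The A431 control libraries already lay apart in the same direction for RICTOR, at 196 CPM in siCTRL and 164 in EV.

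For RHEB, TSC1, TSC2 and MTOR a separation of that size was already present between the control libraries, neither of which received siRNA against YAP1 or the YAP mutant, and siRNA or vector delivery cannot be told apart from any other difference between the arms. HaCaT RHEB was 57.0 CPM in siCTRL and 150 in EV, 2.64-fold higher with the vector. TSC1 was 150 in siCTRL and 68.7 in EV, and TSC2 was 37.3 and 10.1, which is 2.18-fold and 3.71-fold lower with the vector. MTOR was 1.5-fold higher, from 78.3 to 118. RICTOR was 1.23-fold higher, from 212 to 261. EIF4EBP1 differed less between the controls than between the treated groups (11.8 and 16.6, log2 0.48), and RPTOR went the other way (18.0 and 14.4, log2 -0.32). In A431 cells the largest difference between the controls among the 8 members was that of RHEB, 1.37-fold. No test was run between these single libraries. Over all genes the median size of the log2 difference between the controls was also larger in HaCaT (0.65) than in A431 (0.28).

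With the control of each arm subtracted, EIF4EBP1 remained as the member called in HaCaT cells (log2 1.55, SE 0.34, FDR = 0.0168, edgeR), 1 of 8 where 10.8% of all genes were called. RPTOR lost its call with a larger difference and a larger error (0.98, SE 0.45, FDR = 0.182, edgeR). RHEB became -0.46 (SE 0.18, FDR = 0.126, edgeR), TSC1 -0.02 (SE 0.18) and TSC2 0.57 (SE 0.30, FDR = 0.239, edgeR), so the sign of RHEB and TSC2 turned, as did that of MTOR (-0.12, SE 0.35). In A431 cells RHEB turned to -0.13 (SE 0.18, FDR = 0.712, edgeR) and no member was called. RICTOR also lost its call in HaCaT cells, at 0.11 (SE 0.25). The marker lists moved with the arms as well. In HaCaT cells the 8 keratinocyte markers summed to 2820 CPM in siCTRL and 3440 to 4050 in siYAP, against 7260 in EV and 4510 to 7400 in YAP5SA. The 6 fibroblast markers summed to 22.3 and 21.5 to 27.9 CPM against 0.668 and 0.66 to 1.79. Of these COL1A2, COL3A1 and PDGFRB stayed at or below 0.194 CPM in HaCaT cells. The 4 endothelial markers summed to 59.1 and 16 to 19.6 against 2.10 and 1.19 to 2.47. Among them CDH5 reached 51.8 CPM and VWF 7.1, while PECAM1 and KDR stayed at or below 0.394. The part of the marker lists in the results on RHEB, TSC1 and TSC2 was not tested.

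**Figure D4:**
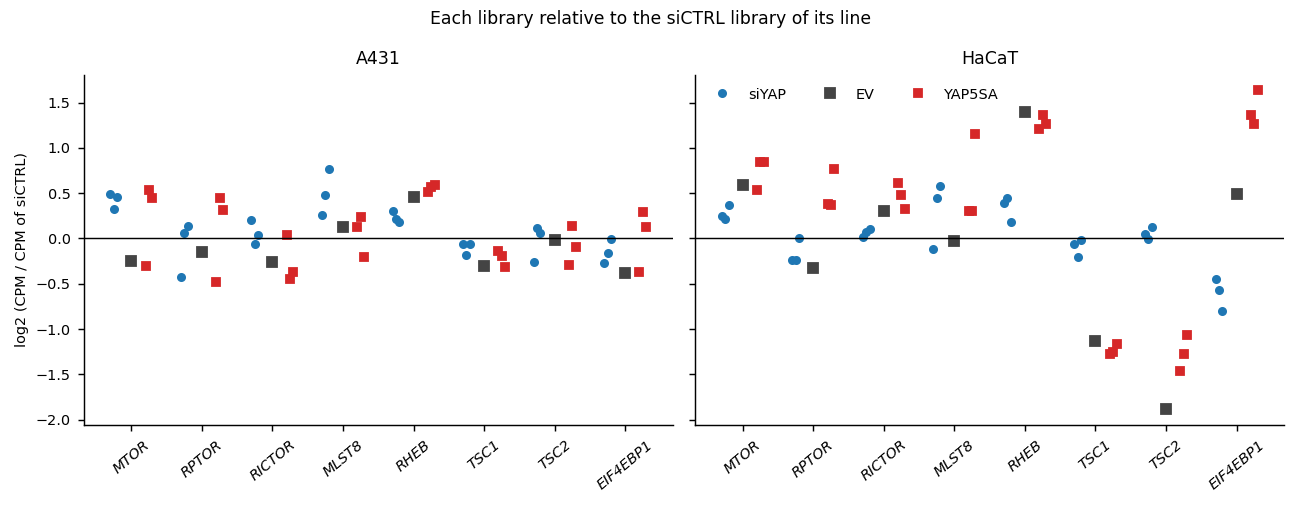
Log2 ratio of each library's CPM to that of the siCTRL library of its line, for the 8 abundant members in A431 (left) and HaCaT cells (right), with siYAP in blue, EV in black and YAP5SA in red. In HaCaT cells the EV point lies with the YAP5SA points for RHEB (near 1.40) and TSC1 (near -1.13), whereas EIF4EBP1 separates YAP5SA from EV.

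The promoters and 3′ UTRs of the genes that separated the arms are shown because RHEB, TSC1 and TSC2 differed most of the 8 between the HaCaT controls. RefSeq (GRCh38.p14) gave windows of 300 bases around the annotated start for 6 members (MTOR, RPTOR, RICTOR, RHEB, TSC1 and TSC2), with 2 windows for TSC2. No window was searched for EIF4EBP1, MLST8, DEPTOR or RRAGD. The GGAATG core bound by TEAD, the DNA-binding partner of YAP, was found in none of these windows on either strand, and 14.03% of 35116 promoters hold it. The first TSC2 window holds TCACGTGA, the core of the CLEAR element recognised by TFEB and MITF, which also contains the E-box CACGTG. It is in capitals below and its E-box begins at position -114 from the start. Of all promoters 0.98% hold TCACGTGA and 7.26% hold CACGTG, and the other members' windows hold neither. The TSC2 window lies at chr16:2047735-2048034 on the plus strand, the TSC1 window at chr9:132944567-132944866 on the minus strand and the RHEB window at chr7:151519846-151520145 on the minus strand.
TSC2 promoter: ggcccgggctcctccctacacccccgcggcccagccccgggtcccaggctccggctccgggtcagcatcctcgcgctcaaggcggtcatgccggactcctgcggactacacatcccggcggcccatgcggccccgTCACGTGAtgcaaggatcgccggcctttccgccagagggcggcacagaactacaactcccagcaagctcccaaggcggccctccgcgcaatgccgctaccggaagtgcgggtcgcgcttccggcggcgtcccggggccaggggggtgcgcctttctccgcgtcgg
TSC1 promoter: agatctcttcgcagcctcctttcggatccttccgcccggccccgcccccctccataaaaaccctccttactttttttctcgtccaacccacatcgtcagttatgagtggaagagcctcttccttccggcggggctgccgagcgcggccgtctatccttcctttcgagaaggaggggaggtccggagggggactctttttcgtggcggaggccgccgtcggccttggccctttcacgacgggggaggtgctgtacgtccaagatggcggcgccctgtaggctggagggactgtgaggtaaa
RHEB promoter: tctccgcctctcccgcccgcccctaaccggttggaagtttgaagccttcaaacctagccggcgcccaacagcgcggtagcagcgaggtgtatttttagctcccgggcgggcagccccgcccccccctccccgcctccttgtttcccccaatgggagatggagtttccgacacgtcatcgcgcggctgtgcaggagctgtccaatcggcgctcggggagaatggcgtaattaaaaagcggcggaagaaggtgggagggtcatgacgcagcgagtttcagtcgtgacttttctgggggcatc

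The 3′ UTRs were searched on the transcript strand for the 7-base sites TTCTTAA and CTTCTTA. Earlier results of these same data had connected both sites with siYAP, so the siYAP values below are not independent of their choice. Among 10674 tested genes with a 3′ UTR of at least 50 bases, 27.2% hold one or the other. Of the abundant members RHEB and RICTOR hold 1 site each and TSC1 holds 2, whereas MTOR, RPTOR, MLST8, TSC2 and EIF4EBP1 hold none. The scarce members DEPTOR and RRAGD also hold sites, which are not printed. The sites are in capitals in the windows below, from GENCODE v29 transcripts, at base 229 of the 1107-base 3′ UTR of RHEB, base 526 of 2284 in RICTOR and bases 3078 and 4808 of 4887 in TSC1. Over both lines siYAP gave log2 differences of 0.29 for RHEB, 0.07 for RICTOR and -0.10 for TSC1, with none called. That of DEPTOR was -0.49 (SE 0.71, FDR = 0.705, edgeR). Members without a site also lay on either side of 0, such as MTOR (0.35) and EIF4EBP1 (-0.38). The part of the sites was not tested.
RHEB site: tatattgtatTTCTTAAtattatgacc
RICTOR site: tttcacgtttTTCTTAAtgtttgtaac
TSC1 site 1: gctgcggaatCTTCTTActaagcttga
TSC1 site 2: gtttgctgtcCTTCTTAgaatgttcta

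The 2 lines differed in 6 of the 8 members over the mean of the 4 treatments, against a background of 72.6% of all genes. EIF4EBP1 stood furthest apart. It lay between 76.7 and 122 CPM in the 8 A431 libraries and between 6.77 and 36.6 in the 8 HaCaT libraries, 6.21-fold lower in HaCaT cells (log2 -2.63, SE 0.13, FDR = 1.01e-09, edgeR) and without overlap. RHEB (log2 -0.66, SE 0.06, FDR = 8.44e-07, edgeR) and MLST8 (-0.54, SE 0.19, FDR = 0.0206, edgeR) were also lower in HaCaT cells. TSC1 (0.69, SE 0.06, FDR = 4.38e-07, edgeR), RICTOR (0.43, SE 0.09, FDR = 0.000716, edgeR) and MTOR (0.39, SE 0.12, FDR = 0.0132, edgeR) were higher. RPTOR (-0.12, SE 0.16) and TSC2 (-0.21, SE 0.11, FDR = 0.0877, edgeR) did not pass, and TSC2 passed without A431 YAP5SA replicate 1 (-0.24, FDR = 0.0467, edgeR).

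For RHEB, TSC1, TSC2, EIF4EBP1, RICTOR, MTOR and MLST8 the line difference was not of 1 size in the 2 arms, which was not itself tested. RHEB was 143 ± 6.54 CPM (SD, n = 3) in A431 siYAP and 72.2 ± 6.71 in HaCaT siYAP cells, whereas with YAP5SA it was 179 ± 4.73 and 139 ± 7.37. TSC1 was 63.2 ± 2.95 and 141 ± 9.41 CPM with siYAP, but 58.3 ± 3.65 and 63.8 ± 2.61 with YAP5SA. TSC2 was higher in HaCaT than in A431 cells with siYAP (38.9 ± 1.79 against 25.5 ± 3.42 CPM) and lower with YAP5SA (15.6 ± 2.17 against 24.5 ± 3.71). EIF4EBP1 was 90.7 ± 8.58 in A431 and 7.79 ± 0.942 in HaCaT siYAP cells, and 103 ± 23.0 and 31.7 ± 4.33 with YAP5SA. RICTOR was 205 ± 18.8 and 222 ± 6.52 with siYAP against 166 ± 30.5 and 295 ± 28.7 with YAP5SA, and MTOR was 98.5 ± 5.99 and 95.0 ± 5.30 against 88.5 ± 25.5 and 131 ± 16.3. MLST8 was 12.2 ± 2.19 and 7.06 ± 1.67 with siYAP against 8.92 ± 1.35 and 8.76 ± 3.2 with YAP5SA. RPTOR, not called between the lines, was 19.1 ± 3.78 and 16.2 ± 1.63 with siYAP. With YAP5SA RPTOR was 22.1 ± 6.89 and 25.7 ± 4.15, and its ranges overlapped in each arm. MTOR and MLST8 missed the threshold when the treated or the control libraries were compared alone.

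DEPTOR and RRAGD were too scarce for a call. DEPTOR, the inhibitor of mTOR, had 43 counts in A431 siCTRL and 115, 80 and 41 in siYAP, then 28 in EV and 62, 13 and 22 in YAP5SA. In HaCaT cells it had 55 counts in siCTRL and 28, 31 and 43 in siYAP, 0 in EV, and 28, 0 and 17 in YAP5SA. In CPM it fell below its control in all 3 HaCaT siYAP libraries (3 against 1.08, 1.51 and 1.42), with a log2 difference of -1.17 and an SE of 0.98 (FDR = 0.565, edgeR). The count of 0 in the HaCaT EV library allows a level of up to 0.0873 CPM (3 counts, which covers counting error only), so no fold against it is given. Over the mean of the 4 treatments DEPTOR was lower in HaCaT than in A431 cells (log2 -2.56, SE 0.835, FDR = 0.0147, edgeR). Its logCPM of 0.51 barred a call, and that mean includes the count of 0. Under the alternatives this line difference lay between -3.85 and -1.26. RRAGD was at 0 to 4 counts in every library, under the mean of 10 counts required for testing, and at or near the limit of 3 counts.

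Across the 8 group means of log2 CPM, RHEB and TSC1 followed opposite courses (Pearson r = -0.976) and MTOR and RICTOR similar ones (r = 0.859), a description over 8 points that share 2 lines and 2 arms. The genes nearest to RHEB over these means were NBN (r = 0.997) and HCP5 (0.991), and 542 genes exceeded an r of 0.9. TSC1 was nearest to USP54 and KANSL1 (both 0.993, with 517 genes over 0.9) and TSC2 to SP2 (0.994) and KIAA0195 (0.992, with 367). For EIF4EBP1 these were NOL6 (0.995) and TIGD2 (0.994), with 813 genes over 0.9. RICTOR was nearest to APLP2 (0.989) and L3HYPDH (0.984), MTOR to SLC20A1 (0.956) and PAPPA (0.947), and RPTOR to SGK223 (0.975) and PRCC (0.954). MTOR and RPTOR each had 14 genes over 0.9, so their courses were shared by few genes.

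The other genes of the pathway were read from a list of 72, of which 68 were abundant enough for a call. With siYAP 2 were higher and 1 lower in A431 cells, and 3 were higher and 2 lower in HaCaT cells, which is near the 6.71% and 6.8% of all genes. EIF4EBP2, the paralogue of EIF4EBP1, was lower in A431 siYAP cells at 79.8, 87.3 and 81.5 CPM against 165 (log2 -0.99, SE 0.13, FDR = 0.00165, edgeR). In HaCaT cells it stood at 350, 310 and 361 against 354 in siCTRL, and at 83.9 in EV. SEC13, a subunit of the GATOR2 complex (0.86), and C7orf60, a sensor of S-adenosylmethionine (0.86), were higher in A431 siYAP cells. In HaCaT siYAP cells the lysosomal scaffold genes LAMTOR1 (log2 -0.76, SE 0.15, FDR = 0.0116, edgeR) and LAMTOR2 (-0.88, SE 0.21, FDR = 0.024, edgeR) were lower. MITF, a lysosomal transcription factor excluded from the nucleus by mTORC1 (1.34, FDR = 0.0097, edgeR), FNIP2, a partner of folliculin (1.15), and GATSL2, related to the arginine sensor CASTOR1 and with near-identical copies in the genome (0.82), were higher.

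With YAP5SA 7 genes of the list were higher and 9 lower in HaCaT cells, 16 of 68 beside 16.4% of all genes, and 0 in A431 cells (edgeR). PDCD4, a repressor of translation that S6 kinase marks for destruction, was 378 CPM with EV and 206, 66.2 and 122 with YAP5SA (log2 -1.52, SE 0.38, FDR = 0.0215, edgeR). DDIT4, an inhibitor of mTORC1 induced by stress, went from 375 to 243, 129 and 198 (-0.98, SE 0.23, FDR = 0.0184, edgeR). PIK3R1, the regulatory subunit of PI3K, went from 59.0 to 30.4, 24.8 and 35.1 (-0.97, SE 0.17, FDR = 0.00605, edgeR). NPRL3, a subunit of the inhibitory GATOR1 complex (1.43, SE 0.39), WDR24 of GATOR2 (1.13, SE 0.35) and GATSL2 (1.24, SE 0.23) were higher. Against EV, genes for activators and inhibitors of mTORC1 therefore moved in both directions. The single HaCaT EV library lay below siCTRL for NPRL3 (1.69 and 5.62 CPM), WDR24 (2.58 and 4.64) and GATSL2 (2.12 and 21.2). GATSL2 stayed below siCTRL with YAP5SA, at 5.08, 5.34 and 4.77. In siCTRL PIK3R1 stood at 32.5, within its YAP5SA range, and PDCD4 (327) and DDIT4 (286) above theirs. The count fell from 16 to 9 without HaCaT YAP5SA replicate 3, where the share over all genes fell to 9.33%, and to 4 when the line was fitted alone, where it fell to 5.51%. The median log2 fold change of the list was 0.06, beside -0.02 over all genes.

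**Figure D5:**
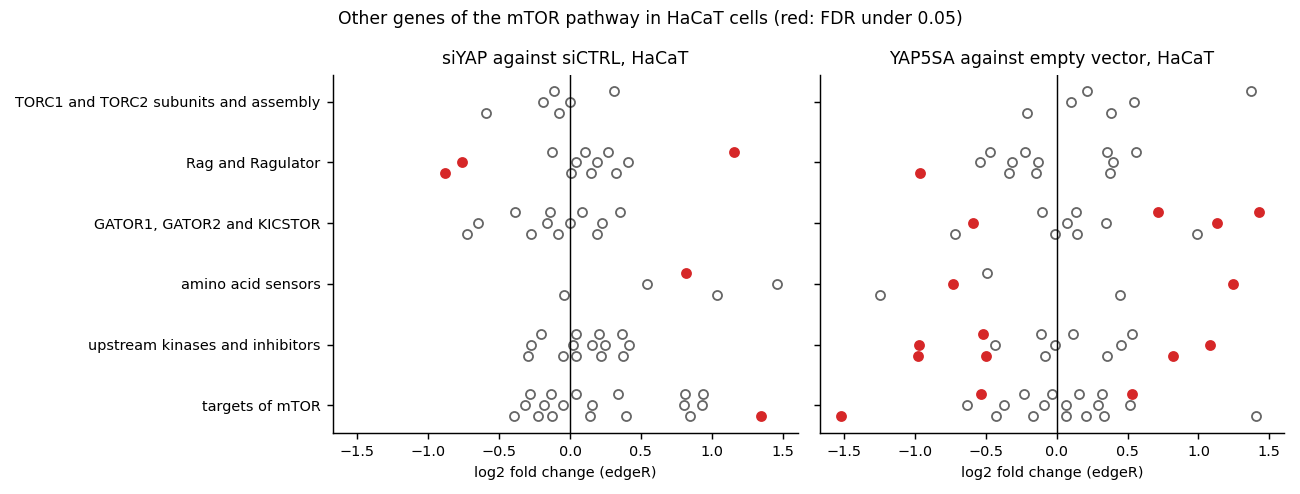
Log2 fold change of 68 other genes of the mTOR pathway in HaCaT cells for siYAP against siCTRL (left) and YAP5SA against EV (right), by functional group, with genes past an FDR of 0.05 in red and the others open. For siYAP 5 genes are red and for YAP5SA 16 are, on both sides of 0.

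Between the lines 21 genes of the list were higher and 29 lower in HaCaT cells, 50 of 68 and near the 72.6% of all genes. For some of these genes the HaCaT controls of the 2 arms lay far apart. SESN3, a sestrin that inhibits mTORC1 signalling, had 0 to 7 counts in the A431 libraries and 53 to 909 in the HaCaT libraries. EIF4EBP3, the remaining 4E-BP paralogue, was lower in HaCaT cells (log2 -3.02, SE 0.28, FDR = 5.92e-07, edgeR), like EIF4EBP1, and SEH1L, which serves in GATOR2 and the nuclear pore, was lower as well (-1.95, SE 0.10). RRAGB, a Rag GTPase, was higher (1.34, SE 0.13). GRB10, an adaptor phosphorylated by mTORC1, was 0.601 CPM in HaCaT siCTRL but 15.6 in HaCaT EV, beside 16.5 and 25 in A431 cells. SGK1, a kinase activated by mTORC2, was 0.382 in HaCaT siCTRL and 14.2 in EV, beside 0.587 and 0.734.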

How the data were processed

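RNA-seq was measured in 16 libraries of A431 and HaCaT cells. The authors cut paired reads to 75 bp, aligned them to RefSeq transcripts through bowtie2 within RSEM, and deposited 1 table of estimated counts per gene. The submitters' processing notes name RSEM 1.2.11 and build hg19. The study's methods give another RSEM version. Groups and replicate numbers came from the labels. The methods state biological triplicates, which holds for the treated groups only. Replicates differed beyond sampling noise (chi-square per degree of freedom at least 6.51).

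Estimated counts were rounded and fitted in R 4.3.3 with edgeR 4.0.16 (quasi-likelihood test, TMM, 1 model of 8 groups, 8 residual degrees of freedom), after genes with a mean over 10 counts per library were kept (14673). P-values were adjusted over all tested genes by the Benjamini-Hochberg method, and calls needed an FDR under 0.05 with logCPM over 1, as in the study, which left 12237 genes that could be called. SE is the log2 fold change over the square root of F. With single controls, p-values rest on the spread of the treated groups. The test was also run on simulated counts of the same design, and the outcome is not given here. DESeq2 1.42.0 was the other tool. Lengths and 3′ UTRs came from GENCODE v29, for the transcript whose coding sequence was longest. Figures were drawn with Python 3.11.15, pandas 2.3.3 and matplotlib 3.10.9.

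Members were named whether called or not, though not each of them in every comparison, with YAP1 as a check. Of the pathway list, genes called against a control or between lines were named, at most the 3 largest changes in each direction, and for members called within a line the 2 genes nearest by Pearson r. The members, the pathway and marker lists, the motifs and the tests were chosen with earlier results of these data known. EIF4EBP2 levels in the vector arm, GRB10 and SGK1 controls and the siCTRL levels set beside YAP5SA were picked out after their values were seen. Alternatives were DESeq2, RLE size factors, other count filters, FDR alone, each line fitted alone, both controls together, a replicate block, each treated library left out and, added after the controls were seen to differ, each arm against its own control.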

Additional observations from a re-analysis of the deposited data

How the results depend on the processing

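No call of a member in the comparison of lines turned direction under any alternative. For siYAP the number of members called went from 0 to 1 in HaCaT cells with both controls together (EIF4EBP1, log2 -0.87) and, over both lines, to 1 (RHEB) with DESeq2 and with over 10 counts in every library, and lay at 0 to 1 with single libraries left out (1 without HaCaT siYAP replicate 3). For YAP5SA in HaCaT cells it went from 1 to 3 with DESeq2, 3 with the replicate block, 2 with both controls together and 0 with the line fitted alone, and lay at 0 to 2 with single libraries left out (2 without YAP5SA replicate 1, 0 without replicate 3). With YAP5SA over both lines it went from 0 to 1 with DESeq2, RLE size factors, no filter, over 10 counts in every library, the replicate block and both controls together, each time EIF4EBP1, and lay at 0 to 3 with single libraries left out. For YAP5SA against siYAP it went from 1 to 2 in A431 with over 10 counts in every library and with the replicate block (RICTOR added), to 0 with each arm against its own control, and lay at 0 to 2 with single libraries left out (0 without siYAP replicate 3). In HaCaT cells it went from 7 to 1 with each arm against its own control, where MTOR (-0.12), RHEB (-0.46) and TSC2 (0.57) turned, as did RHEB in A431 (-0.13). MTOR lost its HaCaT call without siYAP replicate 1 or 2 or YAP5SA replicate 2 or 3, and RPTOR without siYAP replicate 1 or 2 or YAP5SA replicate 3. The cause was not tested. Of the member log2 fold changes under the alternatives, 25 gained a call, 17 lost one with the sign kept and 4 lost one with the sign turned. The sign was kept in 1120 and turned in 66, of which 4 were called as reported (the own-control values above) and 62 were not. With both controls together 27 turned, among them RHEB with siYAP (-0.27 over both lines) and TSC2 with YAP5SA in HaCaT cells (-0.60). Same-numbered libraries of different groups had deviations correlated over 0.1 in 6 of 18 pairs (r -0.03 to 0.35), which was 3 of 3 between the YAP5SA groups of the lines, 2 of 3 between the siYAP groups and 1 of 12 between siYAP and YAP5SA groups. The labels name no shared batch, so the numbers were not taken as a pairing. Under the replicate block RPTOR (FDR = 0.0431) and TSC2 (FDR = 0.0432) in HaCaT YAP5SA cells and EIF4EBP1 over both lines (FDR = 0.0447) passed in edgeR. Single controls limit the precision of every comparison with a control.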
